A study of Mus musculus with 15 samples.

Results

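Isg20 and 8 other genes that type I interferon induces, Isg15, Ifit1, Ifit3, Irf7, Oasl2, Rsad2, Bst2 and Usp18, were followed mouse by mouse in the gastrocnemius, the large calf muscle, to ask whether Isg20 moved with the others. The 9 genes were listed by name and matched by symbol to the 55450 Ensembl genes of the deposited count table, and 9 of 9 were found. Isg20 was put on the list because the study had called it changed by running in the mice with more frailty markers, so its values in that comparison, and in the comparisons that use the same mice, are given as a description with no test. RNA was sequenced from 15 aged C57BL/6JN mice, all female and over 17 months old, with no genetic modification named in the labels. Low mice carried at most 1 positive frailty marker (labelled robust) and High mice at least 2 (labelled frail). Control mice stayed sedentary in their cages, and Run mice ran downhill on a treadmill in 2 bouts (speed 13 m/min, slope 22 degrees), and their muscle was taken 24 h after the second. There were 4 mice in each of Low Control, Low Run and High Run and 3 in High Control, and each library came from the muscle of 1 mouse, named by its ID.

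Type I interferons are secreted proteins that bind the receptor IFNAR and, through the kinases JAK1 and TYK2, activate a complex of transcription factors that includes STAT2 and IRF9. This complex enters the nucleus and binds a short DNA element, the interferon-stimulated response element, in front of the genes it induces. Those genes encode proteins that block viruses at many steps, together with regulators that extend or end the response, and in muscle they are known to rise with infection, inflammation and repair.

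Each member has a known role. Isg20 (ENSMUSG00000039236, chr7:78913424-78920396, plus strand, GRCm38) encodes an exonuclease that degrades single-stranded RNA. Rsad2 (ENSMUSG00000020641, chr12:26442746-26456452, minus strand) encodes viperin, an enzyme that makes a chain-terminating nucleotide. Isg15 (ENSMUSG00000035692, chr4:156199424-156200818, minus strand) encodes a ubiquitin-like protein that is attached to other proteins, and Usp18 (ENSMUSG00000030107, chr6:121245906-121270917, plus strand) encodes the protease that removes it and dampens signalling from IFNAR. Irf7 (ENSMUSG00000025498, chr7:141262706-141266481, minus strand) encodes a transcription factor that amplifies interferon production. Ifit1 (ENSMUSG00000034459, chr19:34640871-34650009, plus strand) and Ifit3 (ENSMUSG00000074896, chr19:34583531-34588731, plus strand) encode proteins that bind foreign RNA. Oasl2 (ENSMUSG00000029561, chr5:114896936-114912234, plus strand) belongs to the 2'-5' oligoadenylate synthetase family, and Bst2 (ENSMUSG00000046718, chr8:71534255-71537456, minus strand) encodes tetherin, which holds budding virus particles at the cell surface.

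The sequence in front of these genes was compared because the induced genes share the response element and Isg20 was the gene in question. Promoter windows of RefSeq (GRCm38.p6), each from 250 bases before a gene's start to 50 after it, were matched by symbol for 8 of the 9 members, and Usp18 had no entry. The core of the element was searched as GAAANNGAAA on either strand, which reads TTTCNNTTTC on the other, where N is any base. It was present in a window of 5 of the 8 members (62.5%), Isg15, Bst2, Rsad2, Ifit1 and Ifit3, against 3.99% of the 27025 genes with a window. The match was absent from the 3 windows of Isg20 and from those of Irf7 and Oasl2, which says only that these letters are not in these windows. The matching stretches are printed 5′ to 3′ on the strand of the gene, with the matches in capitals:
Isg15 (chr4:156200855-156200916, minus strand): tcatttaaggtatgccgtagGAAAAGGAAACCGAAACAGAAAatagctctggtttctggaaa
Bst2 (chr8:71537567-71537622, minus strand): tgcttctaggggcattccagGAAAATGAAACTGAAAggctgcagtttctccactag
Rsad2 (chr12:26456543-26456592, minus strand): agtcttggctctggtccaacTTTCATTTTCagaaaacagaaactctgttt
Ifit3 (chr19:34583353-34583436, plus strand): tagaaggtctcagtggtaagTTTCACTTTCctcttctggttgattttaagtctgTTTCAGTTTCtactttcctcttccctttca
Ifit1 (chr19:34640765-34640833, plus strand): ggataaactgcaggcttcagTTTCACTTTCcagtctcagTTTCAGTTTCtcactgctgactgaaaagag
Isg15 held 3 matches that overlap one another, the first beginning 78 bases before the start, and Bst2 held 2 that overlap, the first at 130 bases. Ifit3 held 2 matches at 156 and 122 bases before the start, Ifit1 held 2 at 104 and 85 bases, and Rsad2 held 1 at 120 bases.

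A second interferon element, the gamma-activated site TTCNNNGAA, which reads the same on both strands, was present in a window of 2 of the 8 members, Isg20 and Bst2, against 9.55% of the 27025 genes. A gene was counted if any of its windows matched, and Isg20 had 3, so the count says only that these letters occur there. In Bst2 the site overlaps the first GAAANNGAAA match. In Isg20 it begins 73 bases before the first of the gene's 3 RefSeq starts, shown here in capitals within the 250 bases before that start:
Isg20 (chr7:78913174-78913423, plus strand): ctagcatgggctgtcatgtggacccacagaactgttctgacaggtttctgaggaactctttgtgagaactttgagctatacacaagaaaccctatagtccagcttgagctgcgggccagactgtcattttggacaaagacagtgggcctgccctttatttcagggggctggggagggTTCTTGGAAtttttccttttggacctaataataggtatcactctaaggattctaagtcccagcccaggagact

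Libraries held between 19395125 and 30699216 counts over genes. Values are given in CPM, the count scaled to a library of fixed size after TMM normalization, and 16920 genes passed the filter on low counts, the 9 members among them. Mice D9 (Low Control) and D62 (High Run) stood farthest from the others on the first principal component of these genes, which held 33.4% of the variance. The libraries were dominated by muscle fibre RNA, with the 8 fibre markers summing to between 145053 and 218179 CPM per mouse. In bulk RNA, fewer cells of a type and less RNA per cell cannot be told apart.

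Members were detected in every mouse, but at low levels. Per kilobase of exon, Bst2 had the highest median level at 9.91 CPM per kb (range 5.96 to 25.9) and Usp18 the lowest at 0.901 CPM per kb (0.371 to 1.91). Isg20 came after Bst2, Rsad2 and Ifit3 in this order, with a median level of 2.25 CPM per kb (0.872 to 10.7), between Ifit3 at 2.62 (1.16 to 7.90) and Isg15 at 2.12 (0.875 to 11.3), and these ranges overlap almost entirely. Isg20 and Isg15 varied most between mice, by 12.3-fold and 12.9-fold from the lowest to the highest, and Ifit1 least, by 3.48-fold. The lowest count of any member in a mouse was 18, for Isg15, so counting error is largest for that gene. Reads of Ifit3 could be shared with its near-identical neighbor Ifit3b, and only uniquely aligned reads were counted, so its level is uncertain. Exons of Irf7 and Usp18 overlap those of Phrf1 and Gm44148 on the opposite strand, and the counting was strand-specific.

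Isg20 was lowest in the High Control mice. It stood at 1.62, 1.92 and 1.91 CPM in High Control mice D23, D25 and D67, the 3 lowest values of the 15 mice. In High Run mice D49, D52, D53 and D62 it stood at 5.52, 3.30, 19.98 and 4.79 CPM, with D53 far above the others. Every High Run mouse was above every High Control mouse.

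Among Low mice Isg20 did not separate by running. Low Control mice D8, D9, D11 and D98 had 2.91, 4.18, 10.6 and 4.90 CPM of Isg20, and Low Run mice D57, D61, D66 and D68 had 3.62, 2.74, 4.26 and 5.06 CPM. The groups overlap, and the second highest value of the study was in a sedentary Low mouse, D11. The log2 fold change of Isg20 was 2.21 ± 0.57 (standard error) for High Run against High Control and −0.53 ± 0.49 for Low Run against Low Control, where edgeR's adjusted p over all genes was 0.605. The Frailty × Run interaction for Isg20, the High change minus the Low change on the log2 scale, was 2.73 ± 0.75. High Control mice were also below every Low Control mouse, by a log2 fold change of −1.63 ± 0.57. These comparisons share the High Control mice, so their sizes are not separate observations. Without mouse D53, the Isg20 log2 fold change in High mice was 1.32, and with voom's sample quality weights it was 1.33. The kind of test that placed Isg20 on the list, DESeq2's Wald test at an FDR of 0.1, gave it an adjusted p of 0.0514 on these counts, a value that describes the choice of the gene and is not independent of it.

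**Figure D1:**
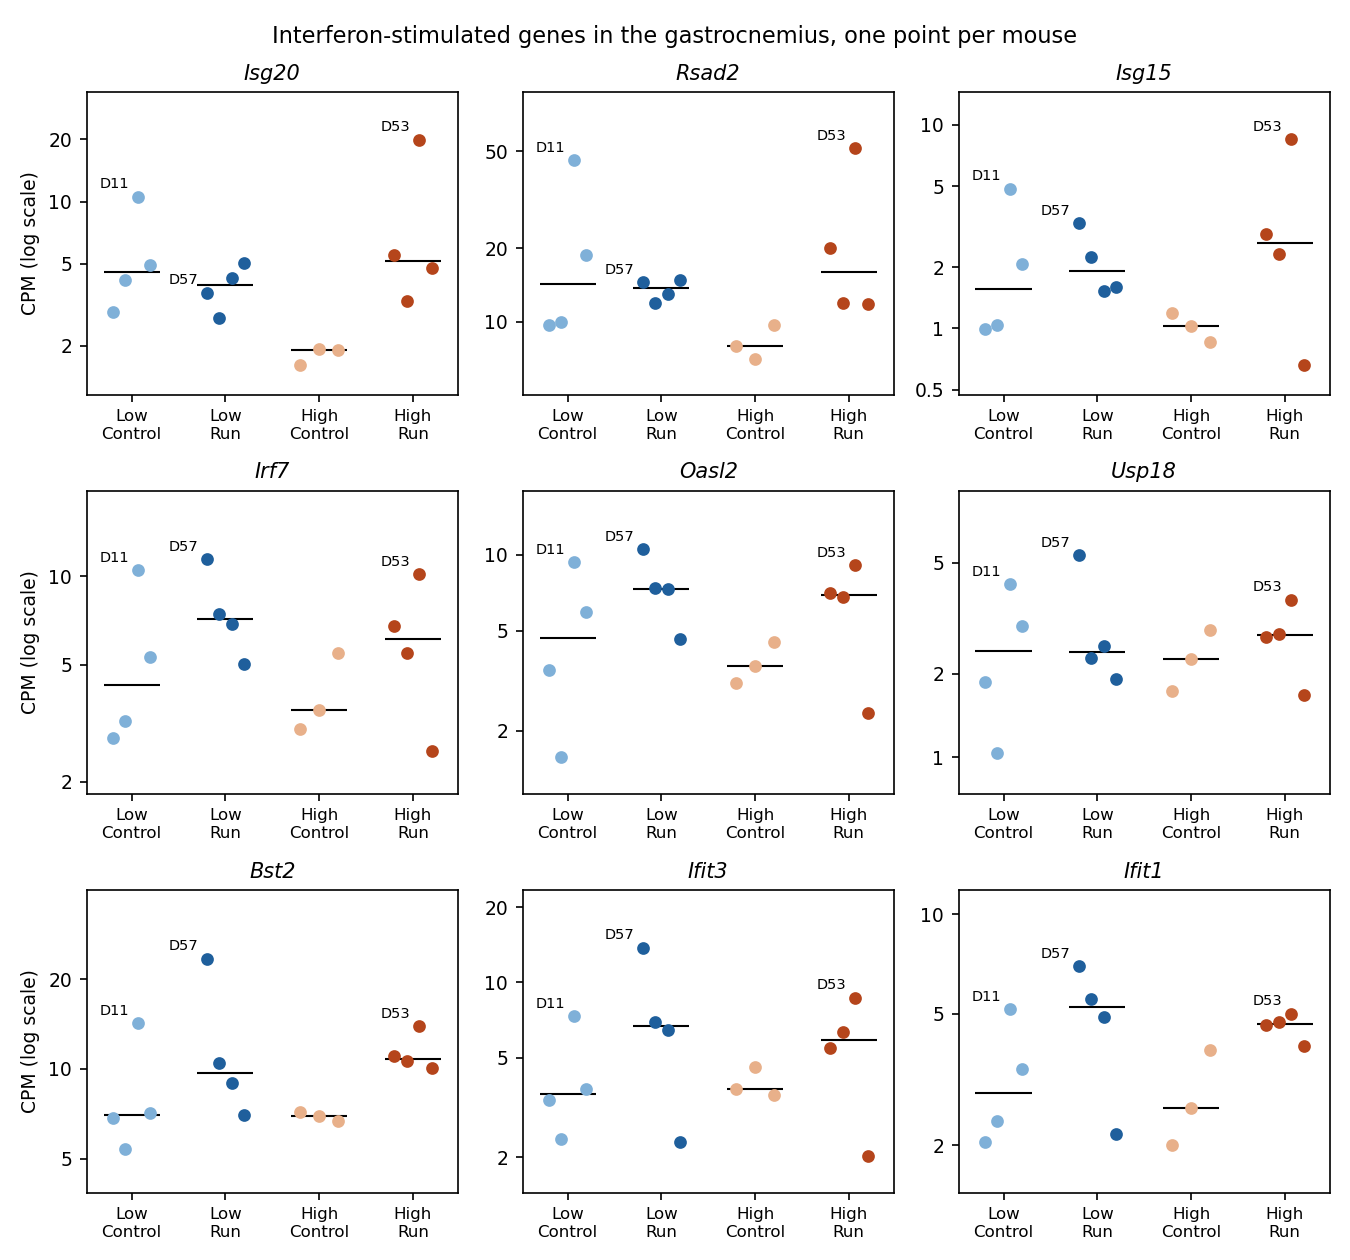
CPM of each member on a log axis, 1 point per mouse, in the 4 groups, with a black line at the group median. Isg20 and Rsad2 are highest in D53 and D11, whereas Irf7, Oasl2, Usp18, Bst2, Ifit3 and Ifit1 are highest in D57, a mouse with 3.62 CPM of Isg20.

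Rsad2 had the most similar profile among the members. It stood at 9.76, 10.0, 46.1 and 18.7 CPM in Low Control mice D8, D9, D11 and D98 and at 14.5, 11.9, 13.0 and 14.9 CPM in Low Run mice D57, D61, D66 and D68. In High Control mice D23, D25 and D67 it stood at 7.99, 7.05 and 9.72 CPM, and in High Run mice D49, D52, D53 and D62 at 20.2, 12.0, 51.4 and 11.9 CPM. As for Isg20, D53 and D11 were the highest mice, and every High Run mouse was above every High Control mouse. In CPM every High Control mouse was also below every Low Control mouse, but only by 9.72 in D67 against 9.76 in D8, and in the values the authors deposited on a variance-stabilized log2 scale this order turned (8.102 in D67 and 8.091 in D8). The log2 fold change of Rsad2 was 1.53 ± 0.55 in High mice (edgeR adjusted p = 0.956) and −0.64 ± 0.49 in Low mice (adjusted p = 0.531), and the interaction was 2.17 ± 0.73 (adjusted p = 0.600), so no Rsad2 difference passed the test. Without D53 the log2 fold change of Rsad2 in High mice was 0.83.

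Isg15 was also highest in D53 and D11 but did not separate the High groups. It stood at 0.998, 1.03, 4.86 and 2.08 CPM in the 4 Low Control mice, in the order D8, D9, D11 and D98, and at 3.28, 2.23, 1.53 and 1.604 CPM in Low Run mice D57, D61, D66 and D68. High Control mice D23, D25 and D67 had 1.20, 1.03 and 0.862 CPM of Isg15, and High Run mice D49, D52, D53 and D62 had 2.92, 2.33, 8.53 and 0.661 CPM. High Run mouse D62 was the lowest of the 15 mice, below every High Control mouse. For Isg15 the log2 fold change was 1.80 ± 0.70 in High mice (edgeR adjusted p = 0.956) and −0.05 ± 0.61 in Low mice (adjusted p = 0.978), and the High value was 0.92 without D53.

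Usp18, which encodes the protease that takes ISG15 off its targets, differed little between groups. Its medians were 2.42 CPM in Low Control, 2.39 in Low Run, 2.25 in High Control and 2.75 in High Run mice, and its values ran from 1.03 CPM in D9 to 5.34 CPM in D57. The log2 fold change of Usp18 was 0.25 ± 0.44 in High mice and 0.26 ± 0.40 in Low mice (edgeR adjusted p = 0.976 and 0.772).

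Irf7, the transcription factor of the list, was highest in Low Run mouse D57 at 11.4 CPM, followed by D11 at 10.5 and D53 at 10.1. The other Low Run mice D61, D66 and D68 had 7.46, 6.86 and 5.01 CPM of Irf7 and the other Low Control mice D8, D9 and D98 had 2.82, 3.23 and 5.29. High Control mice D23, D25 and D67 had 3.01, 3.51 and 5.46 CPM, and High Run mice D49, D52 and D62 had 6.79, 5.46 and 2.55. Its groups overlap in both comparisons. Irf7 had a log2 fold change of 0.65 ± 0.47 in High mice and 0.50 ± 0.43 in Low mice (edgeR adjusted p = 0.958 and 0.575).

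The 4 remaining antiviral effectors had log2 fold changes above 0 in both frailty groups. Ifit1 stood at 2.01, 2.58 and 3.88 CPM in High Control mice D23, D25 and D67 and at 4.61, 4.73, 5.00 and 4.00 CPM in High Run mice D49, D52, D53 and D62, with no overlap. Bst2 stood at 7.18, 6.94 and 6.70 CPM in the same High Control mice and at 11.0, 10.6, 13.9 and 10.0 CPM in the High Run mice, again with no overlap. Both genes varied less between High Run mice than Isg20 did, with D53 highest by a small margin. In Low mice the groups overlap for both, because sedentary D11 was high (5.17 CPM of Ifit1 and 14.2 CPM of Bst2) and Low Run mouse D68 was low (2.16 and 7.02 CPM). The log2 fold change of Ifit1 was 0.70 ± 0.37 in High and 0.60 ± 0.34 in Low mice (edgeR adjusted p = 0.956 and 0.413). That of Bst2 was 0.72 ± 0.37 in High and 0.57 ± 0.34 in Low mice (adjusted p = 0.956 and 0.429).

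Ifit3 and Oasl2 overlapped between groups in both comparisons. Ifit3 ran from 2.02 CPM in High Run mouse D62 to 13.8 CPM in Low Run mouse D57, and Oasl2 from 1.57 CPM in Low Control mouse D9 to 10.6 CPM in D57. In the High Run mice D49, D52 and D53 both genes were above all High Control mice, and in D62 both were below them. For Ifit3 the log2 fold change was 0.51 ± 0.52 in High and 0.81 ± 0.48 in Low mice (edgeR adjusted p = 0.964 and 0.428), and that of Oasl2 was 0.76 ± 0.49 and 0.56 ± 0.45 (adjusted p = 0.956 and 0.549).

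**Figure D2:**
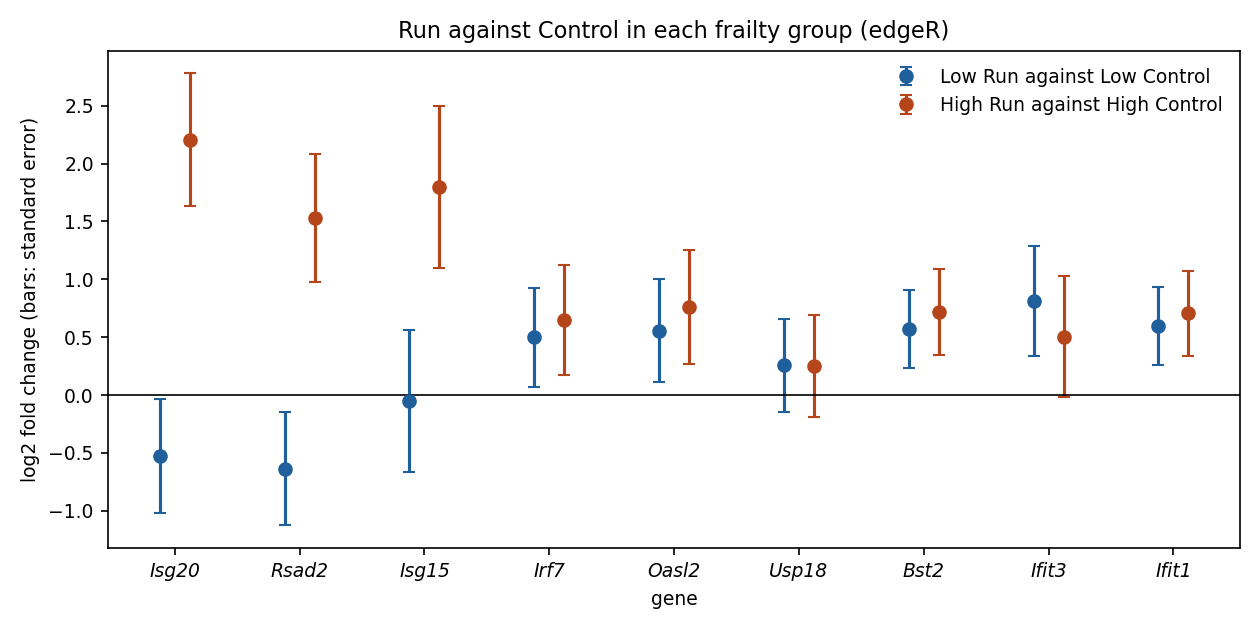
Log2 fold change of each member for Run against Control in Low mice (4 against 4) and in High mice (4 against 3), from edgeR, with bars for the standard error. The values for High mice lie above 0 for 9 of 9 members. In Low mice Isg20 lies at −0.53 ± 0.49, Rsad2 at −0.64 ± 0.49 and Isg15, near 0, at −0.05 ± 0.61. Without D11 these Low values were −0.043, 0.073 and 0.642.

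Over the list, 9 of 9 log2 fold changes were above 0 in High mice, with a median of 0.72, and 6 of 9 in Low mice, with a median of 0.50. Over the 16920 genes tested the medians were 0.05 and 0.02. Without Isg20, the 8 others had medians of 0.71 in High and 0.53 in Low mice. With the filter on low counts, no member passed an FDR of 0.1 in edgeR in any of the 5 comparisons, and 0% of all genes did. In Low mice, 0 of 9 members had an unadjusted p under 0.05, against 13.4% of all genes. In the comparisons that use High mice, Isg20 was left out of this count because those mice chose it. Of the 8 others, 2 (Rsad2 and Isg15) had an unadjusted p under 0.05 for High Run against High Control, against 5.18% of all genes. The count was 1 of 8 (Rsad2) for the interaction, against 7.93%, 1 of 8 (Rsad2) for High Control against Low Control, against 5.86%, and 0 of 8 for High Run against Low Run, against 2.51%. By DESeq2's Wald test 15 genes were called in High mice and 10 in Low mice, with none of the 8 other members among them.

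Groups did not overlap, with Run higher, for 3 of the 8 members other than Isg20 in High mice (Rsad2, Bst2 and Ifit1), against 3.47% of all genes, and for 0 of 9 members in Low mice, against 3.35%. Every High Control mouse was below every Low Control mouse for 1 of these 8 (Rsad2), against 5.27% of all genes, and for 0 of 8 in the deposited variance-stabilized values. All 9 members had negative log2 fold changes in High Control against Low Control, from −1.63 for Isg20 and −1.36 for Rsad2 to −0.09 for Ifit3. The 3 High Control mice behind these values are also the baseline of the High comparison. Without mice D9 and D62, the log2 fold changes in High mice ran from 0.42 for Usp18 to 2.39 for Isg20, again above 0 for 9 of 9 members.

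Isg20, Rsad2 and Isg15 had the largest interaction values among the members. That of Isg20 is a description, because the High mice in it chose the gene. On the log2 scale they were 2.73 ± 0.75 for Isg20, 2.17 ± 0.73 for Rsad2 and 1.85 ± 0.92 for Isg15. The 6 others ran from −0.31 for Ifit3 to 0.21 for Oasl2. Each of these 6 interaction values was smaller than its standard error, which ran from 0.49 to 0.70. Without mice D11 and D53 the interaction values were 1.35 for Isg20, 0.75 for Rsad2 and 0.27 for Isg15.

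Whether Isg20 followed the others from mouse to mouse was asked within groups. Each mouse's log2(CPM + 0.5) was taken minus its group mean, so that the group differences that chose Isg20 did not enter, and Pearson's r over the 15 mice was tested by exact permutation of Isg20 within groups, two-sided, over all 82944 arrangements. Adjusted values are over the 16919 other genes tested. For Rsad2, r with Isg20 was 0.92 (exact permutation p = 0.000796, adjusted 0.462) and Spearman's rho 0.79 (exact p = 0.00275). For Isg15, r was 0.74 (exact p = 0.0524, adjusted 0.914) and rho 0.48 (exact p = 0.134). For Irf7, r was 0.63 (exact p = 0.0743, adjusted 0.914) and rho 0.45 (exact p = 0.151). Rsad2 was the member that tracked Isg20 most closely, ranking 11 of 16919 genes by r, where Isg15 ranked 111 and Irf7 426.

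The other pairs were weaker. Oasl2 had r = 0.46 with Isg20 (exact p = 0.196, rho 0.41), Usp18 had 0.45 (exact p = 0.124, rho 0.40) and Bst2 had 0.36 (exact p = 0.135, rho 0.27). Ifit3 had r = 0.33 (exact p = 0.318, rho 0.23, exact p = 0.466) and Ifit1 had 0.25 (exact p = 0.283, rho 0.28, exact p = 0.319). The exact p of rho was 0.194 for Oasl2, 0.196 for Usp18 and 0.343 for Bst2, and adjusted p-values of r for these 5 genes were between 0.914 and 0.924. One of 8 members thus reached an unadjusted exact p under 0.05, against 4.57% of all genes, and no member and 0% of all genes passed after adjustment.

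The positive values of r rested largely on 2 mice. D11 and D53 lie farthest from the median of Isg20, and without them r with Isg20 was 0.63 for Rsad2 (exact p = 0.0818), −0.05 for Isg15, 0.03 for Irf7, −0.13 for Oasl2, −0.03 for Usp18, −0.28 for Bst2, −0.41 for Ifit3 and −0.20 for Ifit1 (exact p from 0.307 to 0.939 for these 7). The median r of Isg20 with the 8 others fell from 0.46 to −0.09. The pair was left out for its Isg20 values, which by itself can lower r, and no member but Rsad2 had reached an unadjusted p under 0.05 with all 15 mice.

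**Figure D3:**
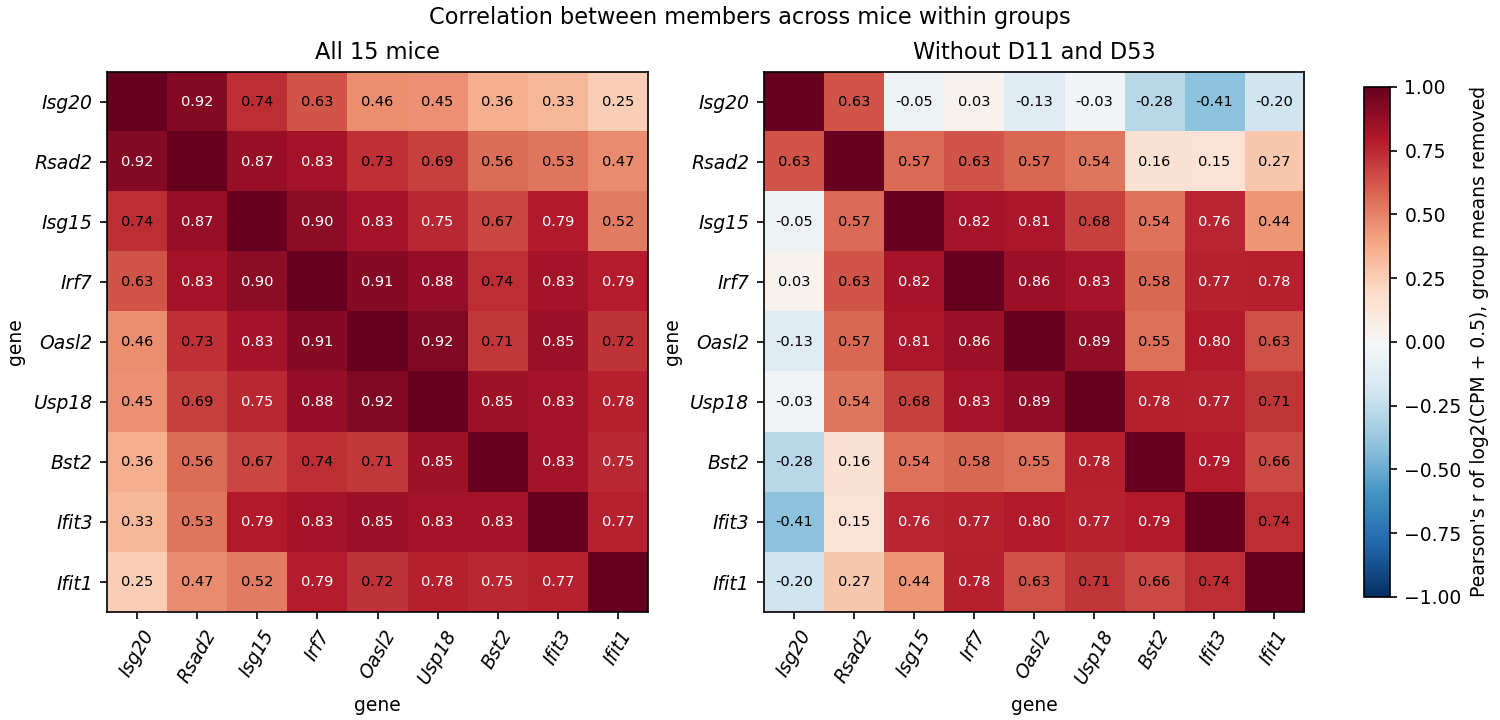
Pearson's r of log2(CPM + 0.5) between each pair of members with group means removed, over all 15 mice (left) and without mice D11 and D53 (right), with the value written in each cell. The block from Irf7 to Ifit1 stays above 0.5 in both panels, and the row of Isg20 loses its positive values on the right except with Rsad2 and, near 0, Irf7.

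The other members kept together. The 6 genes Irf7, Oasl2, Usp18, Bst2, Ifit3 and Ifit1 formed 15 pairs with r from 0.71 to 0.92 (median 0.83) within groups, and from 0.55 to 0.89 (median 0.77) without D11 and D53. All 28 pairs among the 8 members other than Isg20 had r from 0.47 to 0.92 (median 0.78). Rsad2 stood between both patterns, with r from 0.47 to 0.87 to its 7 partners besides Isg20, highest for Isg15 and lowest for Ifit1. These r are given as a description, since the points share libraries and the genes were listed as one family. The 6 genes were also grouped from these same mice. D57, the highest mouse for each of them, was kept when D11 and D53 were left out.

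The order of the mice is given for the same 6 genes as a description. It uses the values that formed this group, so it is not separate evidence of a split. Summed over Irf7, Oasl2, Usp18, Bst2, Ifit3 and Ifit1, the highest mouse was D57 at 71.5 CPM, followed by D11 at 50.8 and D53 at 50.6, and the lowest was D9 at 15.9. D57 was the highest mouse for each of these 6 genes, with 3.62 CPM of Isg20, below the study's median of 4.18. D62 had 4.79 CPM of Isg20 and the lowest Irf7, Ifit3 and Isg15 of the 15 mice. All 9 members in D62 lay below their High Run mean in log2(CPM + 0.5), by a deviation of −0.42 for Isg20, −1.01 for Irf7 and −1.45 for Isg15. Isg20 was thus high where the sum of the 6 genes was high in D11 and D53, but not in D57. The rise in D53 was uneven, with a deviation from the High Run mean of 1.54 for Isg20, 0.29 for Bst2 and 0.12 for Ifit1.

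**Figure D4:**
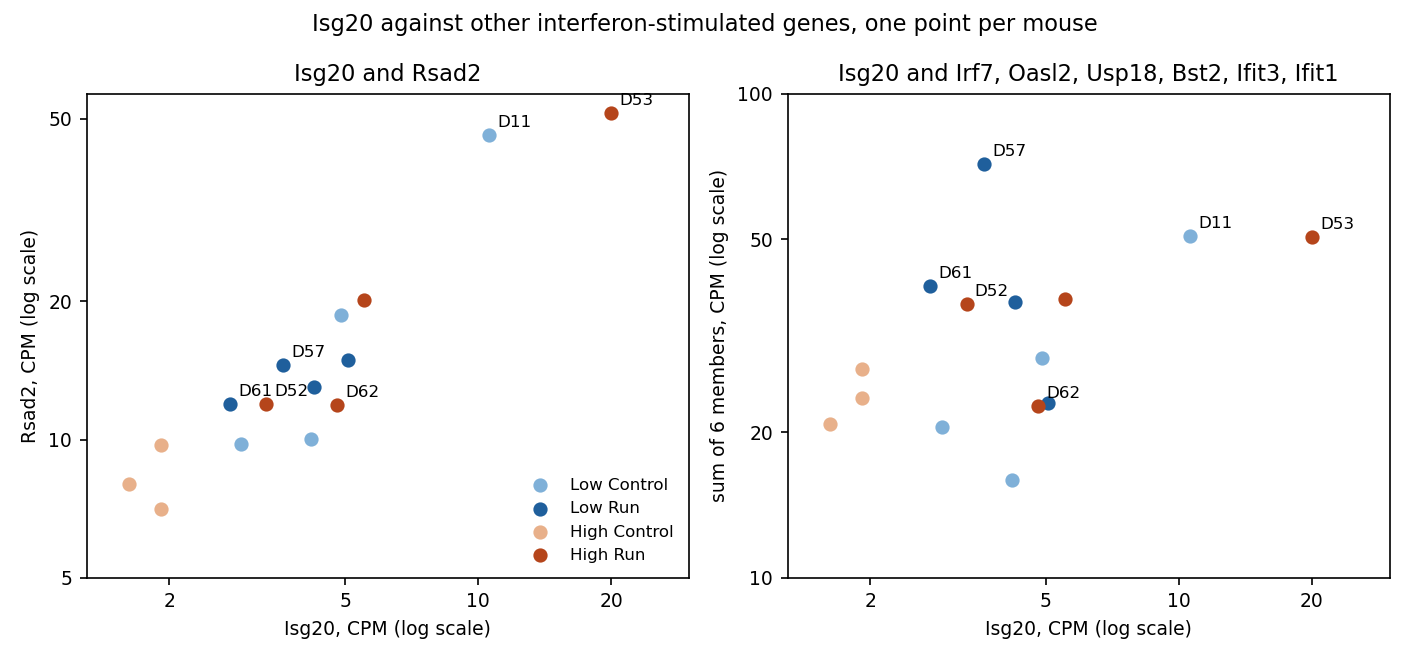
Isg20 (x axis, CPM, log scale) against Rsad2 (left) and against the summed level of Irf7, Oasl2, Usp18, Bst2, Ifit3 and Ifit1 (right, both CPM, log scale), 1 point per mouse colored by group. With Rsad2 the mice run along a diagonal up to D11 and D53, while on the right D57 has the highest sum, 71.5 CPM, at 3.62 CPM of Isg20.

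Among the 5 genes most like Isg20 in log2(CPM + 0.5) over the 15 mice, members left out, were Ube2l6 (Pearson's r = 0.95), Slc4a1 (0.94) and Rec114 (0.92), with group means included and no test. Among members, Rsad2 at 0.94 would stand among them and Isg15 at 0.78 would not. Slc4a1 encodes the anion exchanger of the red cell membrane. Ube2l6 encodes the enzyme that carries ISG15 to its targets, and Rec114 a protein of meiotic recombination. Rec114 was near the detection limit, between 0.0696 and 0.906 CPM. Ube2l6 ranged from 5.41 CPM in High Control mouse D23 to 44.2 in D11 and 79.1 in D53.

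Because a red cell gene stood near the top, 8 erythroid genes were summed, a list chosen after these values were seen: the globins Hba-a1, Hba-a2, Hbb-bs and Hbb-bt, the heme synthesis enzyme Alas2, and Slc4a1, Epb42 and Ermap. D53 and D11, the 2 mice highest in Isg20, were the 2 highest in erythroid RNA, at 3875 and 2392 CPM. The sum ranged from 490.03 to 2392 CPM in Low Control, 245 to 829.5 in Low Run, 313 to 489 in High Control mice and 386 to 3875 after running in High mice. The 6 erythroid genes that passed the filter all had log2 fold changes above 0 in High mice (1.87 to 3.05) and below 0 in Low mice (−1.26 to −0.98), the directions of Isg20 and Rsad2. Of the 8, Epb42 was at 0 in 2 mice.

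Set against this sum, neither Isg20 nor Rsad2 separated the High groups. The list was made because Slc4a1 resembled Isg20 in these same mice, group differences included. Dividing by it can remove the separation by itself, so the values below are a description only. Per 1000 CPM of erythroid RNA, Isg20 stood at 3.93 to 5.53 CPM in High Control mice and 3.58 to 8.56 CPM in High Run mice. It stood at 4.42 to 7.43 in Low Control and 6.10 to 13.0 in Low Run mice. Rsad2 on the same scale stood at 14.4 to 28.1 CPM in High Control and 8.87 to 31.01 CPM in High Run mice. High Run mouse D52 had 386 CPM of erythroid RNA, within the range of the High Control mice, and 3.30 CPM of Isg20, above their highest value of 1.92. Low Run mice D61 and D57, lowest in erythroid RNA at 245 and 278 CPM, also had more Isg20 (2.74 and 3.62 CPM) than any High Control mouse. The part of erythroid RNA in the Isg20 and Rsad2 values was not tested.

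**Figure D5:**
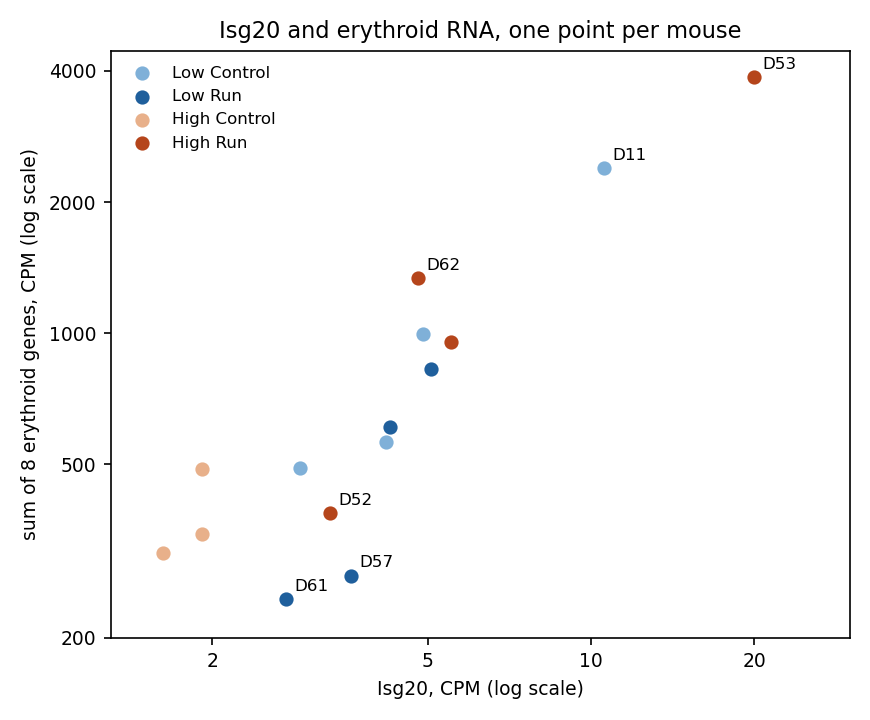
Isg20 (x axis, CPM, log scale) against the summed CPM of 8 erythroid genes (y axis, log scale), 1 point per mouse colored by group. D53 and D11 are highest on both axes, at 19.98 and 10.6 CPM of Isg20 and 3875 and 2392 CPM of erythroid RNA.

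Upstream of the members, interferon RNA was at or near 0. Of 17 interferon genes, 14 had 0 counts in every mouse, Ifnb1 among them, and none passed the filter. Ifng, the type II interferon, had 13 counts in all, in 6 of 15 mice. A count of 0 allows up to 3 counts, or 0.0977 to 0.155 CPM in the deepest and the shallowest library, counting error only. The receptor chains were present, with Ifnar1 between 9.12 and 17.3 CPM and Ifnar2 between 4.65 and 9.60 CPM. Of 8 receptor and JAK genes tested, 5 lay above 0 and 3 below in High mice (median log2 fold change 0.08), and 3 above and 5 below in Low mice (median −0.06). Ifnar2 had a log2 fold change of 0.43 ± 0.20 in High mice (edgeR adjusted p = 0.956).

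Transcription factors of the pathway lay above 0 for 7 of 8 in each frailty group, with a median log2 fold change of 0.23 in High and 0.34 in Low mice, and 0 of 8 passed the test. Stat2 and Irf9, which act in the induced complex, had log2 fold changes of 0.06 and 0.34 in Low mice and 0.51 and 0.24 in High mice. Of 10 sensors of foreign nucleic acid, 8 lay above 0 in High mice (median 0.18) and 9 in Low mice (median 0.21). Irf2, a repressor of interferon-induced genes, lay at −0.11 in High and −0.27 in Low mice.

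Among 52 other interferon-stimulated genes, 47 were tested. Of these, 44 lay above 0 in High mice, with a median log2 fold change of 0.35, and 40 in Low mice, with a median of 0.29. None passed the test. An unadjusted p under 0.05 was found for 3 of 47 in High mice, each higher, against 5.18% of all genes, and for 4 of 47 in Low mice, 3 higher and 1 lower, against 13.4%, so neither count stood out from the background. In High mice the 3 with the smallest p were Oas1b at 1.05 ± 0.40, Nlrc5, a transactivator of MHC class I genes, at 1.36 ± 0.52, and Oas3 at 1.51 ± 0.70. In Low mice they were Cxcl10, a chemokine, at 1.34 ± 0.44, Samhd1, which degrades deoxynucleotides, at 0.43 ± 0.14, and Ifitm3, which blocks virus entry, at 0.62 ± 0.24. The adjusted p-values by edgeR were 0.956 for those named in High and 0.358 for those in Low mice. Among genes below 0, the smallest p-values belonged to Ifit3b (−0.56) and Lgals3bp (−0.05) besides Irf2 in High mice, and to Znfx1 (−0.50) and Trim25 (−0.51) besides Irf2 in Low mice. Mx1, a well-known antiviral gene, reached at most 0.864 CPM.

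The interferon-induced GTPases lay above 0 for 14 of 14 in High mice (median log2 fold change 0.94) and 13 of 14 in Low mice (median 0.72), and 0 of 14 passed. The High count includes genes that the study named for their rise in these High mice, Ifi47 and Iigp1, and is a description. Ifi47 and Iigp1, which the study picked from these libraries together with Isg20, had log2 fold changes of 1.63 ± 0.50 and 1.504 ± 0.82 in High mice and 0.84 ± 0.43 and 1.43 ± 0.73 in Low mice, above 0 in Low mice where Isg20 lay below it. Their highest mouse as a list was D57, at 567 CPM, and D11 was next at 261 CPM. In promoter windows the GAAANNGAAA match was found for 9 of 10 GTPases and 18 of 40 other interferon-stimulated genes with a window. The nearest relatives of Isg20 among exonucleases, Aen, Isg20l2 and Rexo4, had log2 fold changes between −0.01 and 0.08 in High and between −0.38 and 0.01 in Low mice, and Aen stayed between 30.3 and 41.8 CPM.

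Macrophage markers moved with some of these groups. The 10 macrophage markers, led by Lyz2, were above 0 for 10 of 10 in High mice (median log2 fold change 0.81) and 9 of 10 in Low mice (median 0.41), with none at 0 in a mouse. An unadjusted edgeR p under 0.05 was found for 6 of 10 in High mice, each higher, against 5.18% of all genes. In Low mice it was found for 3 that were higher and 1 that was lower, against 13.4% of all genes. In both frailty groups 0 of 10 passed the test. Mpeg1, on this list, was named by the study for its rise in these High mice, so the High counts are a description. Their sum was 132 to 248 CPM in Low Control, 210 to 290 in Low Run, 110 to 171 in High Control and 156 to 329 in High Run mice, with the lowest mouse in High Control, as for Isg20. The highest macrophage sum was in D49, and D57 was second. Their part in the members' values was not tested.

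Other markers stood out in single mice. The 6 neutrophil markers, led by S100a9, summed to 434 CPM in Low Run mouse D68 and to at most 71.6 CPM elsewhere, with Ly6g at 0 in 6 mice. The 8 B and plasma cell markers, led by Ighm, reached 1073 CPM in Low Run mouse D61, and the 8 T and NK cell markers, led by Cd4, 15.3 CPM in the same mouse, against at most 570 and 2.73 CPM elsewhere. In Isg20, D68 was the highest Low Run mouse at 5.06 CPM and D61 the lowest at 2.74 CPM. Among markers of plasmacytoid dendritic cells, the main source of type I interferon in blood, Ccr9 and Klk1 were at 0 in 7 mice each. Siglech and Spib were low but counted in every mouse, with 264 and 244 counts in all. The sum was mostly Cox6a2, which muscle fibres also express. Endothelial markers, led by Pecam1, summed to between 176 and 279 CPM, with no group apart, and the most abundant fibre marker was Myh4.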

How the data were processed

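The authors aligned reads with STAR 2.7.9a to mm10 and used featureCounts (Subread 2.0.3 per the labels, another version per the study's methods) to count uniquely aligned proper pairs on the strand of each non-mitochondrial gene of Ensembl build 100. The deposited count values are whole numbers per gene, not normalized. The second deposited table holds DESeq2's variance-stabilizing transformation of the counts, on a log2-like scale, and served as an alternative. Poly(A) RNA was sequenced.

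Members and lists were chosen with earlier results of these data known, and the erythroid list after the present values were seen. Symbols and coordinates came from GENCODE M21 (GRCm38), promoters from RefSeq (GRCm38.p6). Genes kept by filterByExpr were tested with edgeR 4.0.16 (R 4.3.3) by the quasi-likelihood F-test after TMM, with 1 mean per group over 15 mice, and called at a Benjamini-Hochberg FDR of 0.1. The variation between mice, as edgeR's common biological coefficient of variation, was 0.266. Alternatives were DESeq2 1.42.0, RLE, no filter, at least 10 counts in every mouse, only the groups compared, limma 3.58.1 voom quality weights, and leaving out mice. In correlations a pseudocount of 0.5 CPM was used, and 2 CPM, the deposited values and total counts as library sizes were tried. Both methods were tested on simulated data.

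The genes named were the 9 members, 11 pathway genes, the 3 smallest p-values in each direction among transcription factors and other interferon-stimulated genes, the 5 genes most like Isg20, and the most abundant gene of each marker list, and some of these are not reported here. Totals of 19395125 to 30699216 counts per mouse set the precision, and floors cover counting error only.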

Additional observations from a re-analysis of the deposited data

Results flagged for a closer look

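One of 30 group values was set apart by a mouse far from the others of its group: Isg20 in High Run mouse D53, at 19.98 CPM, against 3.30 to 5.52 CPM in the other 3 High Run mice. The gap to the nearest of them took 0.867 of the group's range, above the critical value of 0.829 for 4 mice. The 30 values were the 9 members and the erythroid sum in each of the 3 groups of 4 mice, and chance alone sets apart about 1 in 20, so 1 such value is no more than chance gives. The same mouse was the highest of its group for each of the other 8 members and for the erythroid sum, none of which passed that limit.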

How the results depend on the processing

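In edgeR, 0 genes were called in each of the 5 comparisons, and 0 also with RLE, at least 10 counts in every mouse, only the groups compared, without each mouse in turn, and without D11 and D53 or D9 and D62 (pairs chosen after seeing the data). DESeq2 called 10 genes in Low and 15 in High mice, and voom 45 in High mice. Without the filter, edgeR called 86 genes in Low mice, 19 in High mice, 4 for the interaction and 6 for High Run against Low Run. Isg20 was among those called in High mice without the filter (edgeR adjusted p = 0.0606), in the comparison that chose it. The causes were not tested.

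Without D11 and D53, r with Isg20 within groups turned to −0.052 for Isg15, −0.20 for Ifit1, −0.41 for Ifit3, −0.13 for Oasl2, −0.28 for Bst2 and −0.03 for Usp18, and it kept its sign for Rsad2 and Irf7. Without each mouse in turn, with a pseudocount of 2 CPM, the deposited values, total counts as library sizes, or without D9 and D62, it turned for no member. For Rsad2 it ran from 0.87 without D53 to 0.94 without D9 when each mouse was left out, and for Ifit1 from 0.00 without D11 to 0.52 without D68.

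All 9 High log2 fold changes stayed above 0 under each alternative run. Without D11 and D53, the Low value became 0.65 for Isg15 and 0.082 for Rsad2, and the interaction −0.25 for Ifit1, −0.72 for Irf7, −0.49 for Oasl2 and −0.34 for Bst2. Without D9 and D62, the Low value of Usp18 became −0.012, and the interaction 0.17 for Ifit3 and 0.43 for Usp18. With voom weights, the Low value of Usp18 became −0.125, and the interaction 0.083 for Ifit3 and 0.395 for Usp18. When each mouse was left out, the Low value ran from −0.32 to 0.64 for Isg15, −0.88 to 0.073 for Rsad2 and −0.17 to 0.605 for Usp18. The interaction ran from −0.21 to 0.395 for Ifit1, −0.71 to 0.18 for Ifit3, −0.375 to 0.43 for Irf7, −0.26 to 0.51 for Oasl2, −0.23 to 0.65 for Bst2 and −0.36 to 0.42 for Usp18. The signs of these small values are therefore not fixed by the data, and none of them passed the test in any fit. The interaction of Isg20 stayed above 0, from 1.84 without D53 to 2.997 without D52.

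Precision was limited by the 3 High Control mice, by counts of 18 to 1530 per member and mouse, and by the 2 mice highest in Isg20. No paired analysis was possible because the mice carry individual IDs that the groups do not share.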
